A study of Mus musculus with 5 samples.

Results

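The genes described here are the 3 precursors of the opioid peptides, Penk, Pdyn and Pnoc, and the 4 opioid receptors, Oprm1, Oprd1, Oprk1 and Oprl1. They were chosen by name, and all 7 are among the 15093 genes of the deposited table. Each value is the amount of ribosome-bound mRNA of a gene in a library made from Drd2 neurons of the mouse central amygdala (CeA), a nucleus that governs the expression of conditioned fear. The neurons were reached by translating ribosome affinity purification (TRAP), in which a green fluorescent tag on a ribosomal protein lets the ribosomes of 1 cell population be pulled down together with the mRNA they carry.

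All animals were adult Drd2-TRAP mice. They carry Cre recombinase under Drd2 regulatory sequence on a bacterial artificial chromosome (the Drd2-Cre line ER43Gsat) and the Cre-dependent Rosa26 fs-TRAP allele, which encodes EGFP fused to the ribosomal protein L10a, so that the tag marks whichever cells this transgene has switched on, and both groups share these alleles. The fear conditioned group has 3 libraries (replicates 2, 3 and 4) and the control group 2 (replicates 6 and 7), and each library pools the bilateral CeA punches of 3 animals. The sources differ on 2 points. The labels call the controls home cage animals and place collection 2 h after extinction, whereas the results text of the study describes controls that heard the tone without shock and a collection 2 h after conditioning. Its methods, like the labels, write HC for the control group. Whether the pools of a group were collected in separate sessions is not stated, so p-values measure only the spread between these libraries, and no library of the unbound fraction or of animals without the tag was analysed here.

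Enkephalins, dynorphins and nociceptin are short peptides that are cut from the proteins encoded by Penk, Pdyn and Pnoc and released alongside fast transmitters. Enkephalins act mainly on the delta receptor (Oprd1) and the mu receptor (Oprm1), dynorphins on the kappa receptor (Oprk1), and nociceptin on its own receptor (Oprl1). All of these receptors couple to inhibitory G proteins, which lower cyclic AMP and open potassium channels, so that they generally quiet the cell or reduce its transmitter release. In the striatum Penk is a classical marker of the Drd2 neurons and Pdyn of the Drd1 neurons, and the CeA holds both peptides in its GABAergic neurons.

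Values are in counts per 1000000 reads (CPM) of an effective library size set by the authors. A library held between 19605318 and 27937520 reads on genes, so that 3 reads, taken here as the floor of detection, corresponded to between 0.1 and 0.158 CPM. This floor covers counting error only. The control libraries resembled each other less (r = 0.787 across genes, on the log2 scale) than the fear conditioned libraries did (r from 0.979 to 0.986). Control replicate 7 listed 2681 genes at 0 and control replicate 6 listed 976, against 159 to 349 in the fear conditioned libraries. The labelled cell type was compared with its markers. Drd2 was detected in every library, at 128.3 to 554.6 CPM. Divided by gene length, its mean over the libraries was 129.6 CPM per 1000 bases, against 11.5 for Drd1a, the receptor of the other large striatal class. Adora2a and Gpr6, further markers of the Drd2 class, had 188 and 136.5. Other markers differed, with Sp9 of the Drd2 class at 10.17 and Tac1 of the Drd1a class at 94.75. Sst (233), Mbp of oligodendrocytes (214.3) and Ttr of choroid plexus (371.2, nearly all from the controls) exceeded Drd2. The purity of the pull-down was not tested here.

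Penk (ENSMUSG00000045573), the enkephalin precursor, had the highest CPM of all 15093 genes in each of the 5 libraries. It took 16076.2, 13564.5 and 14950.0 CPM after fear conditioning (replicates 2, 3 and 4), against 6097.9 and 8605.6 CPM in control replicates 6 and 7. All fear conditioned libraries lay well above both controls, and the libraries differed by at most 1.19-fold after fear conditioning and by 1.41-fold in controls. These values rest on 339081, 325725 and 301092 reads after fear conditioning, against 182606 and 163196 in controls, so counting error is small beside the spread between libraries. Penk alone made up 1.61%, 1.30% and 1.51% of all CPM after fear conditioning, against 0.654% and 0.832% in controls.

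Mean Penk was 14864 ± 1258 CPM (SD, n = 3) after fear conditioning and 7352 ± 1773 CPM (SD, n = 2) in controls, a ratio of 2.02. The log2 fold change, on log2(CPM + 1), was 1.03 with a standard error of 0.41 and a 95% confidence interval from 0.04 to 2.03. This difference did not pass the test across all genes (limma, unadjusted p = 0.0435, Benjamini-Hochberg adjusted p = 0.285). An exact two-sided permutation test of Penk alone gave p = 0.1, the smallest that 3 against 2 libraries allow. The call depended on the tool. With counts recovered from the CPM values, DESeq2 put Penk past the threshold (log2 fold change 0.98, adjusted p = 0.0093), as did the likelihood ratio test of edgeR (1.01, adjusted p = 0.0313), while the quasi-likelihood test of edgeR (adjusted p = 0.239) and limma voom (adjusted p = 0.113) did not.

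These results were read against the whole table. The rule for a call was an adjusted p under 0.05 with an absolute log2 fold change over 0.5, and limma called 0 of 13560 genes tested (0%). An unadjusted p under 0.05 was reached by 2280 genes (16.8%). DESeq2 called 1296 of 14489 genes (8.94%), and the likelihood ratio test of edgeR called 1115 (7.7%). Every fear conditioned library exceeded both controls for 2745 of the 13560 genes (20.2%) and fell short of both for 2185 (16.1%). Among the opioid genes, limma called 0 of the 6 that reached the minimum mean of 1 CPM for the test, and 1 of them, Penk, had an unadjusted p under 0.05. All fear conditioned libraries were above both controls for 2 of the 7 genes (Penk and Oprm1) and below both for 1 (Oprk1), while the groups overlapped for the other 4. The background shares cover tested genes only, and Oprm1 was not tested. Among the 6 tested opioid genes 1 lay above both controls and 1 below, counts too small to set apart from those shares.

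**Figure D1:**
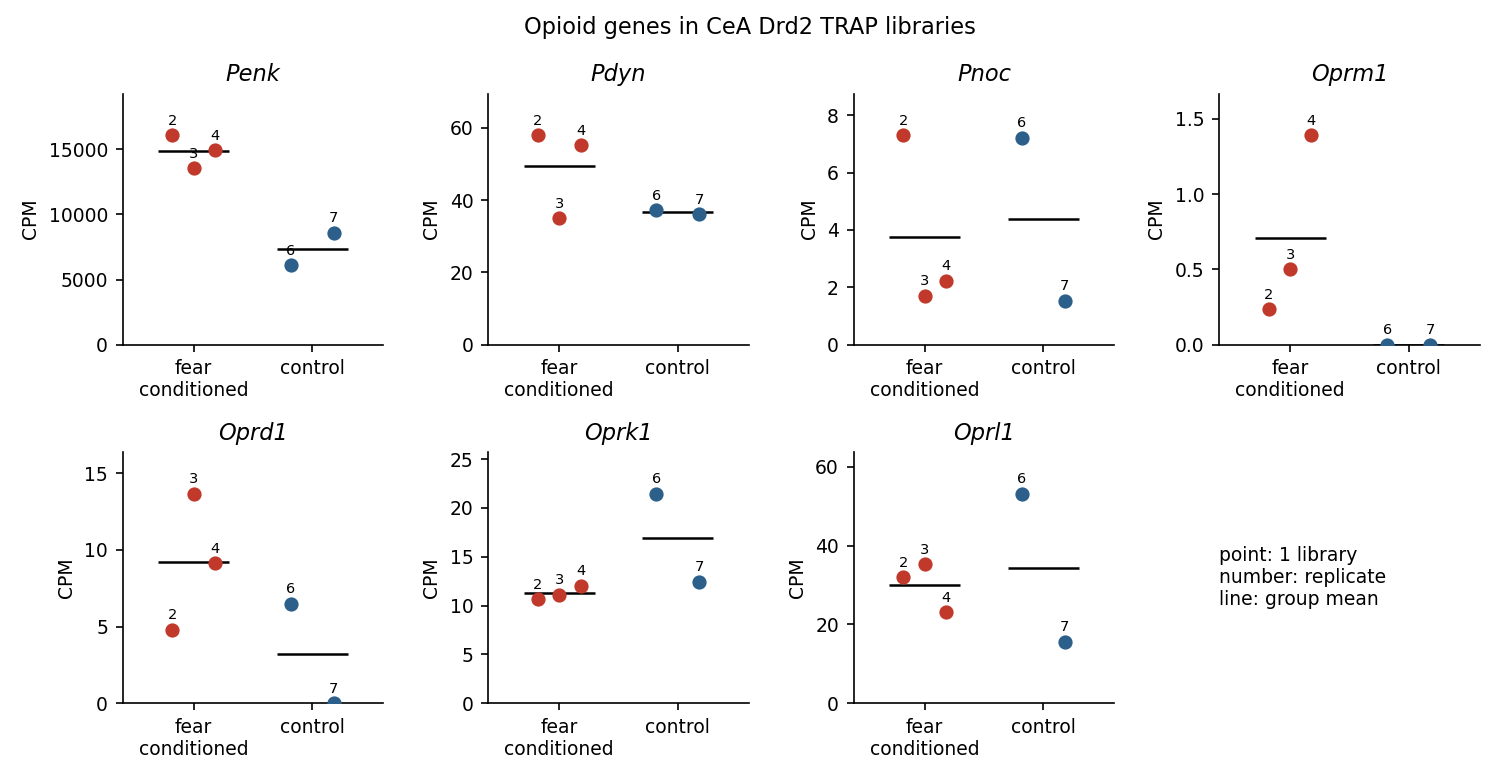
CPM of each opioid gene (vertical axes, linear and starting at 0, with a scale of their own per gene) in the 3 fear conditioned and 2 control libraries. Each point is 1 library with its replicate number, and lines are group means. Penk lies between 13564.5 and 16076.2 CPM after fear conditioning and at 6097.9 and 8605.6 CPM in controls, while Pdyn, Pnoc, Oprd1 and Oprl1 overlap between groups.

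Pdyn (ENSMUSG00000027400), the dynorphin precursor, took 57.9, 34.9 and 55.1 CPM after fear conditioning, against 37.2 and 36.1 CPM in control replicates 6 and 7. Both controls lay close together, and fear conditioned replicate 3 lay just under them, so the groups overlap. The log2 fold change was 0.38 ± 0.33 (SE), with an interval from -0.43 to 1.2 (limma, adjusted p = 0.579).

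Pnoc (ENSMUSG00000045731), the nociceptin precursor, took 7.30, 1.71 and 2.23 CPM after fear conditioning, against 7.21 and 1.53 CPM in control replicates 6 and 7. In each group 1 library (fear conditioned replicate 2 and control replicate 6) stood above the rest, by 4.28-fold between the highest and lowest fear conditioned library and by 4.72-fold between the controls. The groups covered the same range, and the log2 fold change of -0.13 ± 0.81 (SE) had an interval from -2.10 to 1.85 (limma, adjusted p = 0.946), which includes a difference as large as that of Penk in either direction.

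Oprd1 (ENSMUSG00000050511), the delta receptor, took 4.79, 13.7 and 9.14 CPM after fear conditioning, against 6.48 and 0 CPM in control replicates 6 and 7. Control replicate 6 lay among the fear conditioned libraries, whereas control replicate 7 held no read. The log2 fold change was 1.80 ± 0.98 (SE), with an interval from -0.57 to 4.17 (limma, adjusted p = 0.399). This value turned on a single control library. Without control replicate 6 it was 3.25, and without control replicate 7 it was 0.35. Of the 1348 genes whose fear conditioned libraries all lie in the same CPM range as those of Oprd1, 13.6% were also listed at 0 in control replicate 7 and 1.34% in control replicate 6.

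Oprm1 (ENSMUSG00000000766), the mu receptor and main target of morphine, had the lowest mean level per length of the 7 genes. It was supported by 5, 12 and 28 reads after fear conditioning (0.237, 0.5 and 1.39 CPM in replicates 2, 3 and 4) and by 0 reads in both controls. Every fear conditioned library was above the floor of 3 reads and both controls were at 0. That floor was 0.1 CPM in control replicate 6 and 0.158 CPM in control replicate 7. The fear conditioned mean of 0.709 CPM was 5.49 times the mean of these 2 floors. The mean over all libraries was below 1 CPM, so the gene did not enter the limma test. With no filter its log2 fold change was 0.72 (limma, adjusted p = 0.415), and the exact permutation test gave p = 0.2. The likelihood ratio test of edgeR called it (adjusted p = 0.0162), whereas DESeq2 (adjusted p = 0.202) and the quasi-likelihood test of edgeR (adjusted p = 0.19) did not. Of 800 genes in the same range of fear conditioned CPM, 22.6% were at 0 in control replicate 6, 51.6% in control replicate 7 and 13.9% in both. In the RefSeq annotation Oprm1 overlaps Ipcef1, and the strand setting of the counting is not given in the sources used here, so reads of these genes may not have been told apart.

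Oprk1 (ENSMUSG00000025905), the kappa receptor, took 10.6, 11.1 and 12.02 CPM after fear conditioning, against 21.4 and 12.4 CPM in control replicates 6 and 7. The fear conditioned libraries were nearly equal and lay below both controls, though only just below replicate 7. The log2 fold change was -0.51 ± 0.48 (SE), with an interval from -1.66 to 0.65 (limma, adjusted p = 0.609; exact permutation p = 0.1). It was -0.87 without control replicate 7 and -0.14 without control replicate 6.

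Oprl1 (ENSMUSG00000027584), the nociceptin receptor, had the highest mean level per length of the 4 receptors. It took 31.96, 35.3 and 23.1 CPM after fear conditioning, against 53.2 and 15.6 CPM in control replicates 6 and 7. All fear conditioned libraries fell between the controls. The log2 fold change was 0.03 ± 0.56 (SE), with an interval from -1.33 to 1.4 (limma, adjusted p = 0.983), and its sign was not stable, at -0.01 after rescaling each library to the same sum.

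**Figure D2:**
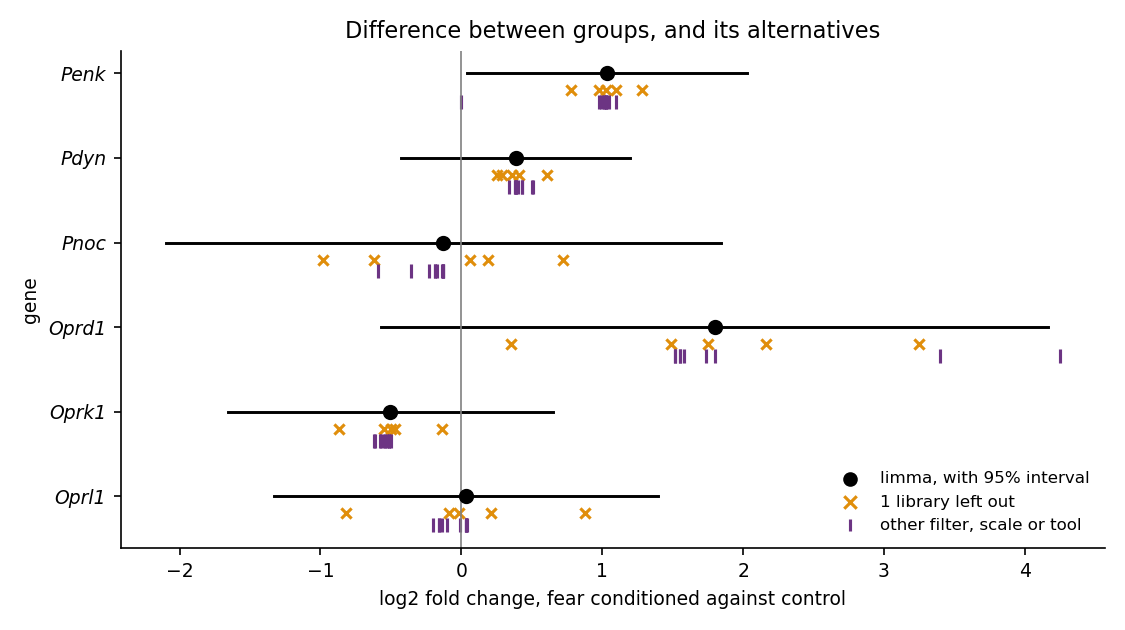
Log2 fold change of the 6 tested opioid genes, fear conditioned against control (horizontal axis). Circles with lines are limma estimates with their 95% confidence intervals, crosses leave out 1 library at a time, and ticks use another filter, scale or tool. The interval of Penk runs from 0.04 to 2.03 and those of the other 5 genes include 0. The tick of Penk at 0 is quantile normalization, which gives the top gene of every library the same value.

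Levels of different genes can be set side by side only after division by gene length, here the length given in the deposited table, and are then in CPM per 1000 bases. Over all 5 libraries the mean level was 5853 CPM per 1000 bases for Penk, 14.7 for Pdyn, 8.09 for Oprl1, 2.12 for Pnoc, 1.95 for Oprk1, 1.70 for Oprd1 and 0.0519 for Oprm1. Penk lay above Pdyn in every library, and Oprl1 above Pnoc, with no overlap between the ranges of the libraries. Oprd1 lay above Oprm1 in 4 libraries, and both were at 0 in control replicate 7, the only point where their ranges met. The remaining neighbors in this order overlapped and cannot be ranked from these libraries. Penk accounted for between 99.46% and 99.81% of the summed level per length of the 3 precursors. Oprl1 accounted for between 58.4% and 74.7% of that of the 4 receptors. The level of Penk per length was 411, 575 and 402 times that of Pdyn after fear conditioning, against 243 and 353 times in controls.

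**Figure D3:**
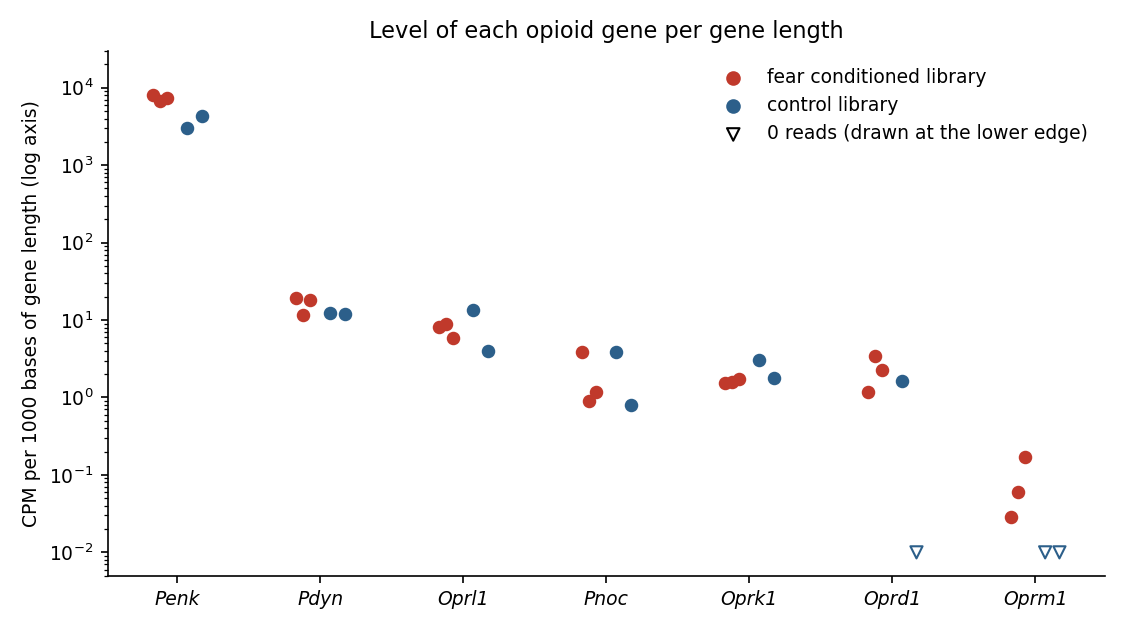
Level of each opioid gene per gene length in CPM per 1000 bases (vertical axis, log scale), with genes ordered by their mean. Each point is 1 library, in red for fear conditioned and blue for control, and open triangles at the lower edge are libraries with 0 reads. Penk lies more than 2 orders of magnitude above Pdyn in all 5 libraries, and Oprm1 is at 0 in both controls.

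Among 21 neuropeptide precursors in the table, compared per length, Penk ranked first in all 5 libraries. The precursor with the next highest mean was Sst (somatostatin), at 233 CPM per 1000 bases. Pdyn ranked 10, 7 and 6 after fear conditioning, against 11 and 9 in controls. Pnoc ranked 12, 19 and 14 after fear conditioning, against 17 and 15 in controls. Neither kept a fixed rank across libraries.

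The ratio of 2 genes within a library does not depend on how that library was scaled, unless a constant is added. In all, 6 ratios were compared, 4 without and 2 with such a constant, by exact two-sided permutation tests, for which p cannot fall below 0.1. The log2 ratio of Penk to Pdyn in CPM was 8.12, 8.60 and 8.08 after fear conditioning, against 7.36 and 7.90 in controls. It was higher in all 3 fear conditioned libraries than in both controls, by 0.64 on average (exact permutation p = 0.1, adjusted over the 6 ratios p = 0.3), and by 0.37 without control replicate 6. The ratio of Penk to Drd2, the gene that defines the population, gave 5.62, 5.18 and 4.75 after fear conditioning, against 5.57 and 5.04 in controls. These groups overlapped, with a difference of -0.12 (exact permutation p = 0.8, adjusted p = 0.8), so that Penk was not resolved from Drd2 in its difference between groups.

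The remaining ratios were not resolved either. Pdyn to Drd1a differed by -0.88 (exact permutation p = 0.3, adjusted p = 0.6) and Penk to Pnoc by 1.17 (exact permutation p = 0.5, adjusted p = 0.6), both with overlapping groups. With 1 CPM added to each value, Oprd1 to Oprm1 differed by 1.08 (exact permutation p = 0.5, adjusted p = 0.6). Oprk1 to Oprm1, computed the same way, was lower in every fear conditioned library than in both controls, with a difference of -1.22 (exact permutation p = 0.1, adjusted p = 0.3). With 0.1 CPM added these differences were 0.65 and -3.28, so their size is set by the constant, since Oprm1 was at 0 in both controls.

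**Figure D4:**
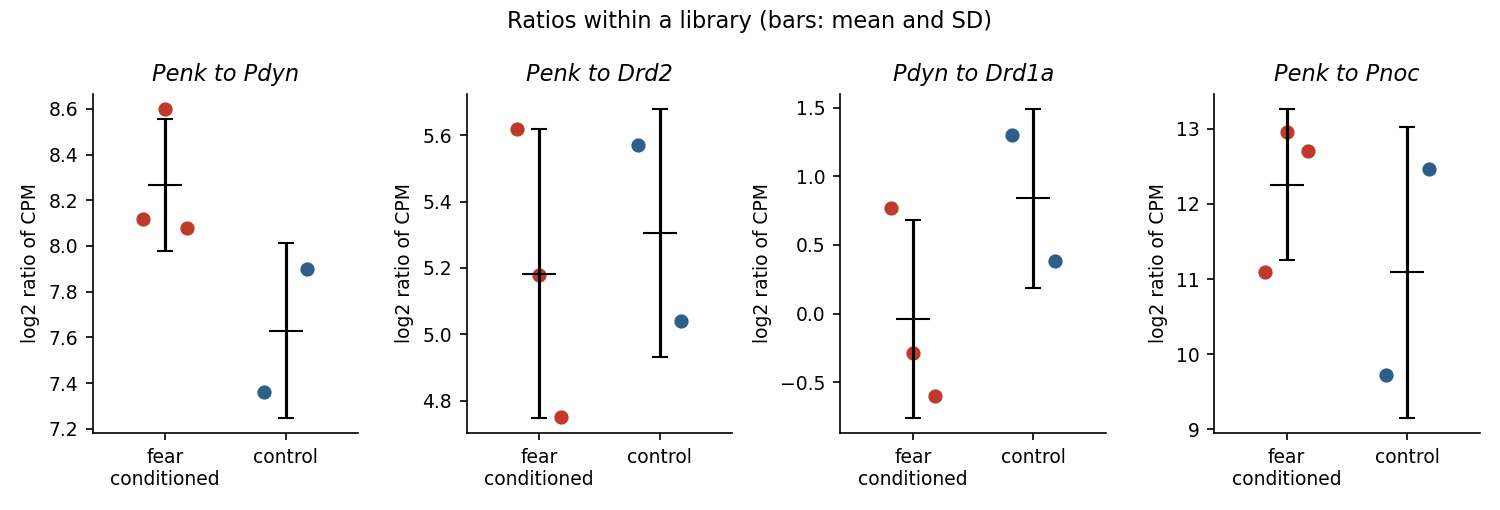
Log2 ratio of the CPM of 2 genes within each library (vertical axes, not starting at 0), for 4 pairs, with the mean and SD of each group. Each point is 1 library. Penk to Pdyn separates the groups (8.08 to 8.60 against 7.36 and 7.90), whereas Penk to Drd2, Pdyn to Drd1a and Penk to Pnoc overlap.

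Markers of cell classes also differed between the groups, in the same direction as Penk for striatal classes. The summed CPM of 7 listed striatopallidal markers, the class that Drd2 and Adora2a define, was 1164.5, 1633.8 and 1882.4 after fear conditioning, against 443.2 and 832 in controls. All fear conditioned libraries were above both controls for 3 of these 7 genes (Drd2, Adora2a and Gpr6), none was at 0 in any library, and the median log2 fold change was 1.30. This median is the value of Upb1, which took 16.17, 13.03 and 14.5 CPM against 14.09 and 1.635 CPM, so it rested on control replicate 7. For 8 striatonigral markers, the class of Drd1a and Tac1, the sums were 267.2, 226.8 and 426.9 against 215.6 and 119.5, with 3 genes above both controls, a median of 1.11, and 1 gene (Eya1) at 0 in control replicate 7. For 8 central amygdala markers the sums were 331.7, 192.8 and 182.4 CPM after fear conditioning, against 317.3 and 533.3 CPM in controls. Of these, 1 gene (Ezr) lay above both controls and 3 (Prkcd, Sst and Calcrl) below both. The median log2 fold change of this list was -0.66, and Tac2 was at 0 in control replicate 7. Over all genes tested the median was 0.08, with 20.2% above both controls and 16.1% below both.

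Astrocyte, oligodendrocyte and choroid plexus markers ran opposite to the striatal markers. The 6 microglia markers, with sums of 57.8, 37.2 and 67.1 CPM against 83.9 and 64.5 CPM, did not separate the groups. The sums for 6 astrocyte markers were 617.3, 479.9 and 628.1 CPM after fear conditioning, against 1404.8 and 2377.7 CPM in controls, with 4 of the 6 genes below both controls and none at 0. For 7 oligodendrocyte markers the sums were 1850.6, 1270.9 and 2693.3 against 2772.8 and 5217.9 CPM, with 3 genes below both controls and none at 0. For 7 choroid plexus markers they were 58.1, 110.4 and 62.8 against 1011.1 and 1415.3 CPM, with 3 of the 6 tested genes below both controls. Of these, Ttr, the transthyretin gene that defines the choroid plexus, accounted for 912.7 and 1319.6 CPM in the controls, and was between 0.348 and 22.1 CPM in the fear conditioned libraries, while Kcnj13, Folr1, Aqp1 and Otx2 were at 0 in at least 1 library. Of all genes tested, 16.1% lay below both controls. The study compared bound and unbound fractions by qPCR, and reported a higher ratio of Drd2 to Drd1a in the bound fraction. The libraries here are ribosome pull-downs pooled over cells, with no unbound fraction analysed. The number of cells of a type, their RNA per cell and the purity of the pull-down therefore cannot be told apart. The part of these differences in the values of the opioid genes was not tested.

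The genes that serve to cut and package the opioid precursors differed widely in level. Of 13 such genes, limma called 0, and the median log2 fold change was -0.07 (0.27 without control replicate 6 and 0.21 without control replicate 7). All fear conditioned libraries were above both controls for 2 and below both for 0, against 20.2% and 16.1% of all genes tested. Cpe, the carboxypeptidase that trims the cut peptides, had the most reads of the list in every library, at 1996.6, 1629.4 and 1901.4 CPM against 2762.7 and 1398.6 CPM. Pcsk2, the convertase that releases the peptides, took 192.0, 191.8 and 241.1 CPM against 156.4 and 300.5 CPM. For both of these genes the controls lay on either side of the fear conditioned libraries. Pcsk1, another convertase, was far lower, at 5.22, 5.21 and 4.82 CPM against 7.91 and 0 CPM in control replicates 6 and 7. The 2 that separated were Scg5, the chaperone of Pcsk2 (log2 fold change 0.41 ± 0.22 (SE), limma, adjusted p = 0.403), and Chgb, a granin of secretory vesicles (0.52 ± 0.23 (SE), limma, adjusted p = 0.319).

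Of 10 listed peptidases that degrade enkephalin and related peptides, limma called 0, and the median log2 fold change was 0.06 (0.99 without control replicate 6 and -0.39 without control replicate 7). None lay above both controls in all fear conditioned libraries and 1 lay below both, against 20.2% and 16.1% of all genes tested. The gene below both was Thop1, thimet oligopeptidase, at 37.8, 49.4 and 34.6 CPM against 60.4 and 75.7 CPM (log2 fold change -0.74 ± 0.30 (SE), limma, adjusted p = 0.292). Mme, the membrane peptidase neprilysin, had a log2 fold change of 2.29 ± 1.06 (SE) that rested on control replicate 7, with 0.158 CPM (3 reads), since control replicate 6 stood at 10.8 CPM, within the fear conditioned range of 9.58 to 27.8 CPM (limma, adjusted p = 0.339).

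Of 19 tested genes through which opioid receptors signal, limma called 0. A log2 fold change above 0 was seen for 5 of them, against 54% of all genes tested, and the median was -0.33 (-0.18 without control replicate 6 and -0.59 without control replicate 7). The fear conditioned libraries lay below both controls for 7 of them and above both for 1, against 16.1% and 20.2% of all genes tested. The 7 were the G protein subunits Gnai1, Gnai2 and Gnai3, the potassium channel subunit Kcnj3, the arrestin Arrb2, the receptor kinase Grk2 and the receptor sorting protein Gprasp1. Gnai1 showed the largest of these differences, with 129.3, 133.0 and 109.3 CPM against 296.0 and 194.6 CPM. Its libraries did not overlap between groups, and its log2 fold change was -0.95 ± 0.26 (SE) (limma, adjusted p = 0.208; DESeq2, adjusted p = 0.0105). Gprasp1 took 379.8, 327.8 and 313.3 CPM against 604.4 and 534.0 CPM, again without overlap (-0.74 ± 0.21 (SE), limma, adjusted p = 0.216; DESeq2, adjusted p = 0.00602). Rgs9, which speeds the shutting off of G proteins downstream of opioid and dopamine receptors and is abundant in striatum, was the 1 tested gene above both controls. It took 384.6, 561.8 and 475.7 CPM against 111.7 and 259.0 CPM (log2 fold change 1.46 ± 0.39 (SE), limma, adjusted p = 0.206; DESeq2, adjusted p = 0.0465). DESeq2 called these 3 genes of the list and no other, against 8.94% of all genes it tested. Kcnj5, a potassium channel subunit too low for the limma test, was listed at 0 in both controls and with 37, 4 and 12 reads in fear conditioned replicates 2, 3 and 4 (DESeq2, adjusted p = 0.17). Such zeros are common among low genes. Of the 800 genes in the fear conditioned range of Oprm1, 13.9% were at 0 in both controls.

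Of 10 transcriptional regulators of opioid genes, limma called 0, and the median log2 fold change was 0.12 (0.41 without control replicate 7 and 0.20 without control replicate 6). An unadjusted p under 0.05 was reached by 3, against 16.8% of all genes tested. The fear conditioned libraries exceeded both controls for 3 (Crem, Jun and Jund) and lay below both for 1 (Crtc1), against 20.2% and 16.1% of all genes tested. Crem, a member of the family that binds cyclic AMP response elements, took 45.1, 41.4 and 33.6 CPM against 15.4 and 0.211 CPM. Control replicate 7 held only 4 reads of it, and the log2 fold change was 3.19 ± 1.06 (SE) (limma, adjusted p = 0.238). Jund, a subunit of the AP-1 factor, was steadier, at 220.3, 197.0 and 181.8 CPM against 135.7 and 119.2 CPM (0.64 ± 0.21 (SE), limma, adjusted p = 0.235). Fos, the activity marker, overlapped between groups, at 22.0, 14.8 and 5.91 CPM against 9.25 and 33.2 CPM.

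The promoter windows of the opioid genes were searched for the motifs of these factor families and, as a further common motif, for the E-box. Windows of 300 bases, from 250 before to 50 after an annotated start, were taken from RefSeq (build GRCm38.p6) for 4 of the 7 genes, Pdyn, Oprm1, Oprd1 and Oprl1, with 9 windows in all. The windows of starts 2 and 3 of Oprm1 begin at 6788320 and 6788326 on chr10, so they are nearly the same sequence. The letters searched, on both strands, were TGACGTCA (the cyclic AMP response element), its shorter form TGACG (which lies within it), TGANTCA (AP-1) and CACGTG (the E-box). Over all 32851 windows these occur in 1.79%, 20.8%, 7.81% and 7.15%. The only match in the 9 windows was an E-box in the window of Oprd1, 86 bases before the start. The 250 bases before the start are shown for Oprd1 (chr4:132144487-132144736, minus strand), with that match in capitals, and for the first start of Pdyn (chr2:129699939-129700188, minus strand) as a window without a match. Both read 5′ to 3′ along the gene.
Oprd1: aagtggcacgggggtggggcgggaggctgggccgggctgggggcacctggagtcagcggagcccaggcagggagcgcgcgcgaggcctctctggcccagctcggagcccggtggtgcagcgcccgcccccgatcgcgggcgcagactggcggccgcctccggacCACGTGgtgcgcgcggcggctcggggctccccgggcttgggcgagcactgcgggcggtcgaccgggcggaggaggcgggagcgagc
Pdyn: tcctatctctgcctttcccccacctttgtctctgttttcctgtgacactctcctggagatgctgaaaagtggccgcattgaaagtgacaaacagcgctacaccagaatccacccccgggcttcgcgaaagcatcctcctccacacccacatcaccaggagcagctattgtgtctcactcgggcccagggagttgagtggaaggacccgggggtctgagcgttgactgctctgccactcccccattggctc
The Oprd1 sequence is 80% G and C with 34 CpG dinucleotides, and that of Pdyn is 57.2% with 8, against medians of 52.4% and 6 over all windows. A match of letters is a description and says nothing of binding.

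Other members of the wider opioid system showed no shared direction. Of 6 such genes tested, limma called 0 and the median log2 fold change was -0.08 (0.04 without control replicate 6 and -0.29 without control replicate 7). Pomc, the precursor of beta-endorphin, was rare, at 3.75, 2.21 and 2.53 CPM against 4.14 and 0.0527 CPM, the last of these being 1 read. Ackr3, a scavenging receptor for opioid peptides, was the 1 gene whose fear conditioned libraries lay below both controls, at 3.46, 1.87 and 2.88 CPM against 3.74 and 22.4 CPM (log2 fold change -1.52 ± 0.81 (SE), limma, adjusted p = 0.390). Of all genes tested, 16.1% lay below both.

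Across 16 other neuropeptide precursors the median log2 fold change was -0.54, with limma calling 0. DESeq2 called 2 of the list, against 8.94% of all genes it tested. The fear conditioned libraries lay above both controls for 1, Tac1, the precursor of substance P, at 109.7, 86.9 and 203.0 CPM against 50.9 and 36.0 CPM (log2 fold change 1.52 ± 0.41 (SE), limma, adjusted p = 0.206). They lay below both for 6, Sst, Cck, Grp, Avp, Cort and Nmb. Of all genes tested, 20.2% lay above both controls and 16.1% below both. Sst took 132.5, 65.5 and 72.0 CPM against 145.9 and 279.7 CPM (-1.23 ± 0.42 (SE), limma, adjusted p = 0.245).

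**Figure D5:**
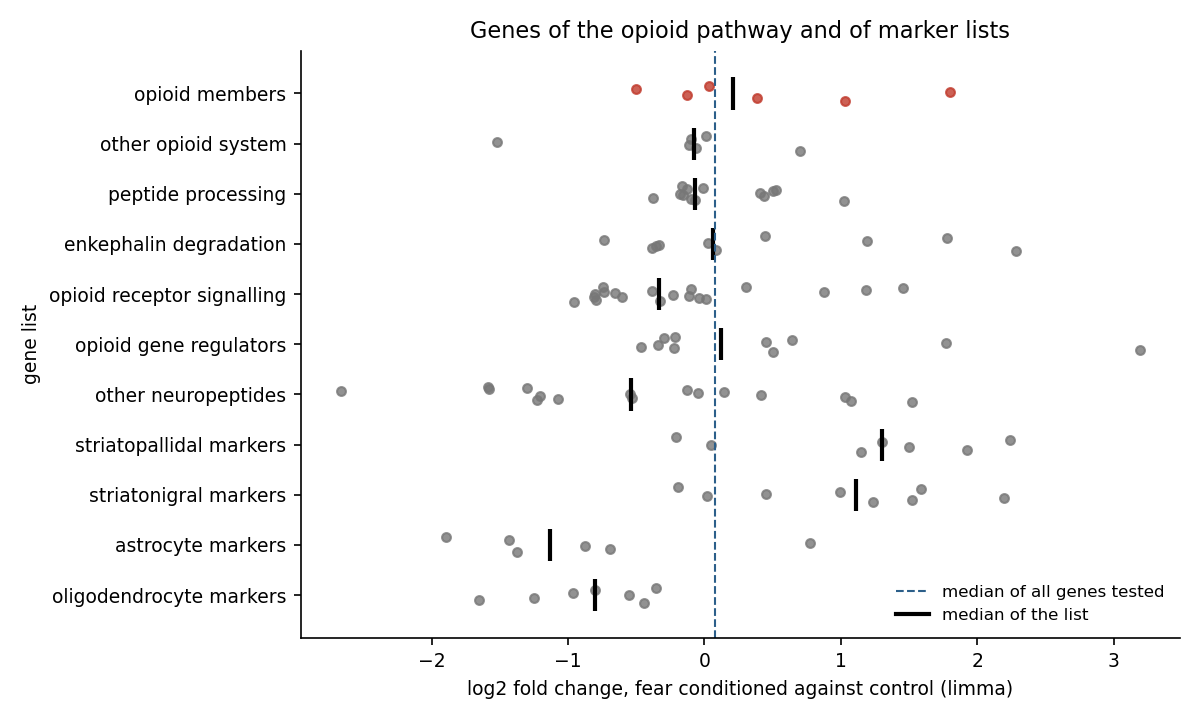
Log2 fold change, fear conditioned against control, from limma (horizontal axis) of the tested genes of each list (vertical axis), 1 point per gene, with the opioid genes in red. Black bars are the median of a list and the dashed line is the median of all genes tested, 0.08. The striatopallidal list has a median of 1.30, and the astrocyte list a median of -1.13.

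For each opioid gene, the genes with the most similar profile were sought among those with a mean of at least 10 CPM, by the mean absolute difference in log2(CPM + 1) over the 5 libraries after centering each gene. Closest to Penk were Adra2c, an adrenergic receptor (0.065), Rbp4, the retinol carrier (0.072), and Mrpl13, a mitochondrial ribosomal protein (0.074), and 13 of 9275 genes lay within 0.1. Closest to Pdyn was Rab3b (0.071), to Oprl1 Kcnj9, a potassium channel subunit (0.086), and to Oprk1 Pcnx (0.031), with 36 genes within 0.1 of the last. Aldh1a1 was closest to Oprm1 (0.069). The profiles of Pnoc and Oprd1 had no gene within 0.1, the nearest being Resp18 (0.206) and Sufu (0.171). With 5 libraries in 2 groups a close profile is a description only.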

How the data were processed

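Ribosome-bound polyA RNA of 5 libraries was measured by RNA-seq. Libraries were made with the SMARTer and Nextera XT kits. The labels name the genome build mm8 and the tool DESeq, without a version, and the aligner and strand setting are not given in the sources used here. For each of 15093 genes, the authors deposited a signal in CPM of an effective library size and a gene length. All values (100%) were whole multiples of the value of 1 read, within 0.01, and reads were recovered from them. Depth is given above.

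Groups were taken from the labels and compared with limma 3.58.1 (lmFit, eBayes with a trend) on log2(CPM + 1), two-sided, for genes with a mean of at least 1 CPM, with Benjamini-Hochberg adjustment over all 13560. Ratios and single genes were compared with exact permutation tests over 10 assignments. Alternatives were a pseudocount of 0.1, other filters, thresholds and scalings, each library left out, and tests on the recovered reads with edgeR 4.0.16, DESeq2 1.42.0 and limma voom, in R 4.3.3. The fits were also run on simulated counts with large changes and the same spread in both groups. The libraries here differ in spread, so that run checks the code and not the calls. The genes named are the 7 opioid genes, all lists of pathway and marker genes, and the 3 nearest profiles of each. These genes and lists were chosen with earlier results of these data known, so the lists are described and not tested. For marker lists whose median is not given above, the median log2 fold change was 0.29 for patch and intercalated, -0.57 for pallial neuron, -0.65 for interneuron, -0.04 for microglia and -0.87 for endothelial markers.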

Additional observations from a re-analysis of the deposited data

How the results depend on the processing

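With a library left out, the rule called 7956 genes without control replicate 6 and 3361 without control replicate 7, against 1 without fear conditioned replicate 3 and 0 without either of the others. In these fits the lone control is assumed to vary like the fear conditioned libraries. The number of opioid genes called ranged from 0 to 2 over the 5 fits, with 2 in the fit without control replicate 6, and that of the 58 opioid pathway genes from 0 to 26, the highest again without control replicate 6 and 12 without control replicate 7. Log2 fold changes ranged from 0.78 to 1.28 for Penk, from -0.98 to 0.72 for Pnoc, from 0.35 to 3.25 for Oprd1 and from -0.82 to 0.88 for Oprl1. The group difference in log2 ratio ranged from 0.37 to 0.91 for Penk to Pdyn, from -1.34 to -0.43 for Pdyn to Drd1a, from -1.59 to -0.85 for Oprk1 to Oprm1, from -0.39 to 0.15 for Penk to Drd2, from -0.37 to 2.53 for Oprd1 to Oprm1 and from -0.20 to 2.53 for Penk to Pnoc. On recovered reads the likelihood ratio test of edgeR called 2 opioid genes and 2 pathway genes, and DESeq2 called 1 and 3. Penk passed in both, at 1.01 and 0.98, and Oprm1 in the former, at 7.04, a fitted value that depends on the prior count. Oprl1, at 0.03, turned to -0.01 after rescaling to a sum of 1000000, to -0.16 in both edgeR tests with TMM, to -0.14 with the upper quartile, to -0.20 in DESeq2 and to -0.10 in voom. The cause was not tested. Quantile normalization set Penk to 0.00, because it gives the top gene of every library 1 value. The median of all genes moved from 0.08 to between -0.07 (DESeq2) and 0.25 (voom). Of the calls of DESeq2, 656 were higher and 640 lower, and of those of the likelihood ratio test 751 and 364. Pdyn and Oprk1 kept their direction and stayed uncalled under all 15 alternatives. Genes under about 3 reads per library were beyond the depth of these libraries. No paired analysis was possible because the groups share no replicate number.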
